A study of Mus musculus with 20 samples.

Results

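The enzymes that make serine and pass its one-carbon unit to folate were followed through 20 RNA sequencing libraries, each with its own animal code. They are 10 genes, taken by symbol from the 46649 Ensembl genes that both count tables list: Phgdh, Psat1 and Psph of serine synthesis, Shmt1 and Mthfd1 of the cytosolic folate branch, and Shmt2, Mthfd2, Mthfd2l, Mthfd1l and Aldh1l2 of the mitochondrial branch. All 10 were tested in both tissues. The groups were 5 Taz-KD and 5 WT hearts, and 5 Taz-KD and 5 WT skeletal (femur) muscles with other codes. Taz-KD mice carry the transgene ROSA26H1/tetO-shRNA:TAZ, a hairpin RNA against tafazzin that doxycycline switches on throughout the body, so that no cell type is targeted on its own. WT mice were C57BL/6N. All mice, WT included, ate chow with 625 mg/kg doxycycline, resumed in the dams after mating, and were sampled at 20 weeks. Loss of tafazzin, which remodels the mitochondrial lipid cardiolipin, is the model of Barth syndrome used here.

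Serine is made from the glycolytic intermediate 3-phosphoglycerate. PHGDH oxidizes it, PSAT1 adds the amino group and PSPH removes the phosphate. Serine hydroxymethyltransferase (SHMT1 in the cytosol, SHMT2 in mitochondria) then splits serine into glycine and a one-carbon unit on tetrahydrofolate. In mitochondria MTHFD2 or its paralog MTHFD2L oxidizes the unit, MTHFD1L releases it as formate, and ALDH1L2 can instead oxidize it to carbon dioxide with formation of NADPH. In the cytosol the single protein MTHFD1 carries out the matching folate steps for purine and thymidylate synthesis. MTHFD2 is best known from embryonic and dividing cells, and differentiated tissue usually has little of it.

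Depth and sample identity were checked first. Libraries held 26963288 to 35301909 counts in heart and 36429399 to 74361382 in muscle. Taz averaged 11.7 ± 0.731 CPM in Taz-KD and 37.8 ± 1.40 CPM in WT hearts, and 13.4 ± 1.05 CPM in Taz-KD and 51.7 ± 3.42 CPM in WT muscles (CPM, read counts scaled to the size of each library with TMM factors, mean ± SD, n = 5 each). No Taz-KD library overlapped a WT library of its tissue. The summed markers of heart muscle lay between 35727 and 49382 CPM in all hearts and between 70.2 and 566 CPM in all muscles, and those of skeletal muscle between 65168 and 190980 CPM in all muscles. Single heart muscle markers varied more than their sum. In Taz-KD hearts Myl7 was 0.218 CPM in R2 and 59.7 CPM in R1798, and Myl4 1.55 CPM in R2 and 90.8 CPM in R1798. White adipocyte markers (Adipoq, Plin1, Lep, Cfd) differed widely between muscles: their sum was 8.86 to 184 CPM in Taz-KD muscles, against 38.4, 60.1, 374, 607 and 1696 CPM in the WT muscles A57, A40, A51, A55 and A33. None of these 4 genes passed the test between genotypes in muscle (edgeR), and their levels are given beside the results that they move with in WT muscles.

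The genome sequence just before 1 RefSeq start is shown for the 3 genes with the largest rise in heart (Phgdh, Psat1, Mthfd2) and for Mthfd2l, the member that did not rise. For Psat1 and Mthfd2 this start lies inside the annotated gene range given below, which reaches further upstream, to 15947337 and 83325908. Each line gives 250 bases on the gene's strand, up to the first transcribed base (GRCm38.p6; Phgdh chr3:98339970-98340219, Psat1 chr19:15925060-15925309 and Mthfd2 chr6:83317605-83317854, all minus strand, and Mthfd2l chr5:90930946-90931195, plus strand). Capitals mark the 8 bases nearest to the amino acid response element core TGATGCAA on either strand. Where stretches were equally near, only the one closest to the start is marked.
Phgdh: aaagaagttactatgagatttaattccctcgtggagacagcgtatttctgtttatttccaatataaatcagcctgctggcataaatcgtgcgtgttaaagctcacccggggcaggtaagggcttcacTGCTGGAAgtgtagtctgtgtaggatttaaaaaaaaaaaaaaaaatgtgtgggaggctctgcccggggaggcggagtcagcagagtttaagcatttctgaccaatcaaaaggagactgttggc
Psat1: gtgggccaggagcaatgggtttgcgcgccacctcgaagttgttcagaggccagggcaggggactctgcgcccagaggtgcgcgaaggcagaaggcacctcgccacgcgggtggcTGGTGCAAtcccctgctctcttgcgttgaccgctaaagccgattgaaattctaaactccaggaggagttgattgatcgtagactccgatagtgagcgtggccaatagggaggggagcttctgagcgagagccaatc
Mthfd2: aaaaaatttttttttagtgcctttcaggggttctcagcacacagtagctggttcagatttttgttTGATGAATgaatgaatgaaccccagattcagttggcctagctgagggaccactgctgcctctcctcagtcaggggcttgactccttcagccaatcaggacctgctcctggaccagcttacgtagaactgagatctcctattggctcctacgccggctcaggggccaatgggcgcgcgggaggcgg
Mthfd2l: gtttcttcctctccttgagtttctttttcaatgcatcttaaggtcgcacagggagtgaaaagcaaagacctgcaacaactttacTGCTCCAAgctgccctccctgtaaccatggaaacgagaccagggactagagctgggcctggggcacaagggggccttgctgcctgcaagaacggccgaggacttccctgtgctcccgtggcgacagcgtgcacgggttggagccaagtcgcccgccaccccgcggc
The core TGATGCAA itself, the looser element TGATGNAAN and the cyclic AMP response element TGACGTCA, read on both strands, were in none of the 10 RefSeq windows of the 9 members listed (250 bases before to 50 after the start). TGATGCAA, which overlaps TGATGNAAN, is in 0.895% of the 32851 windows of all genes, TGATGNAAN in 3.95% and TGACGTCA in 1.79%. The nearest 8 bases differed from TGATGCAA at 1 base in the Psat1 window shown, where 14.6% of all windows come at least as near. Psat1 has another RefSeq start, not shown (chr19:15924623-15924872), where they differed at 3 bases and 99.9% of all windows come at least as near. They differed at 2 bases in Phgdh, Mthfd2 and Mthfd2l, where 79.6% of all windows come at least as near. A match or its lack in these windows describes the letters only.

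In heart, 9 of the 10 genes rose in Taz-KD mice and 1, Mthfd2l, fell (edgeR quasi-likelihood test, Benjamini-Hochberg adjusted p under 0.05 over 19486 genes). Of all genes tested, 14.4% were called higher and 10.3% lower. The median log2(FC) of the 10 genes was 1.35, against -0.02 over all genes tested. For 9 of the 10, every Taz-KD heart lay above every WT heart, which held for 11.3% of all genes, while 7.05% lay wholly below. Because the genes were chosen with earlier results of these libraries known, these counts describe them and are not an independent test.

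**Figure D1:**
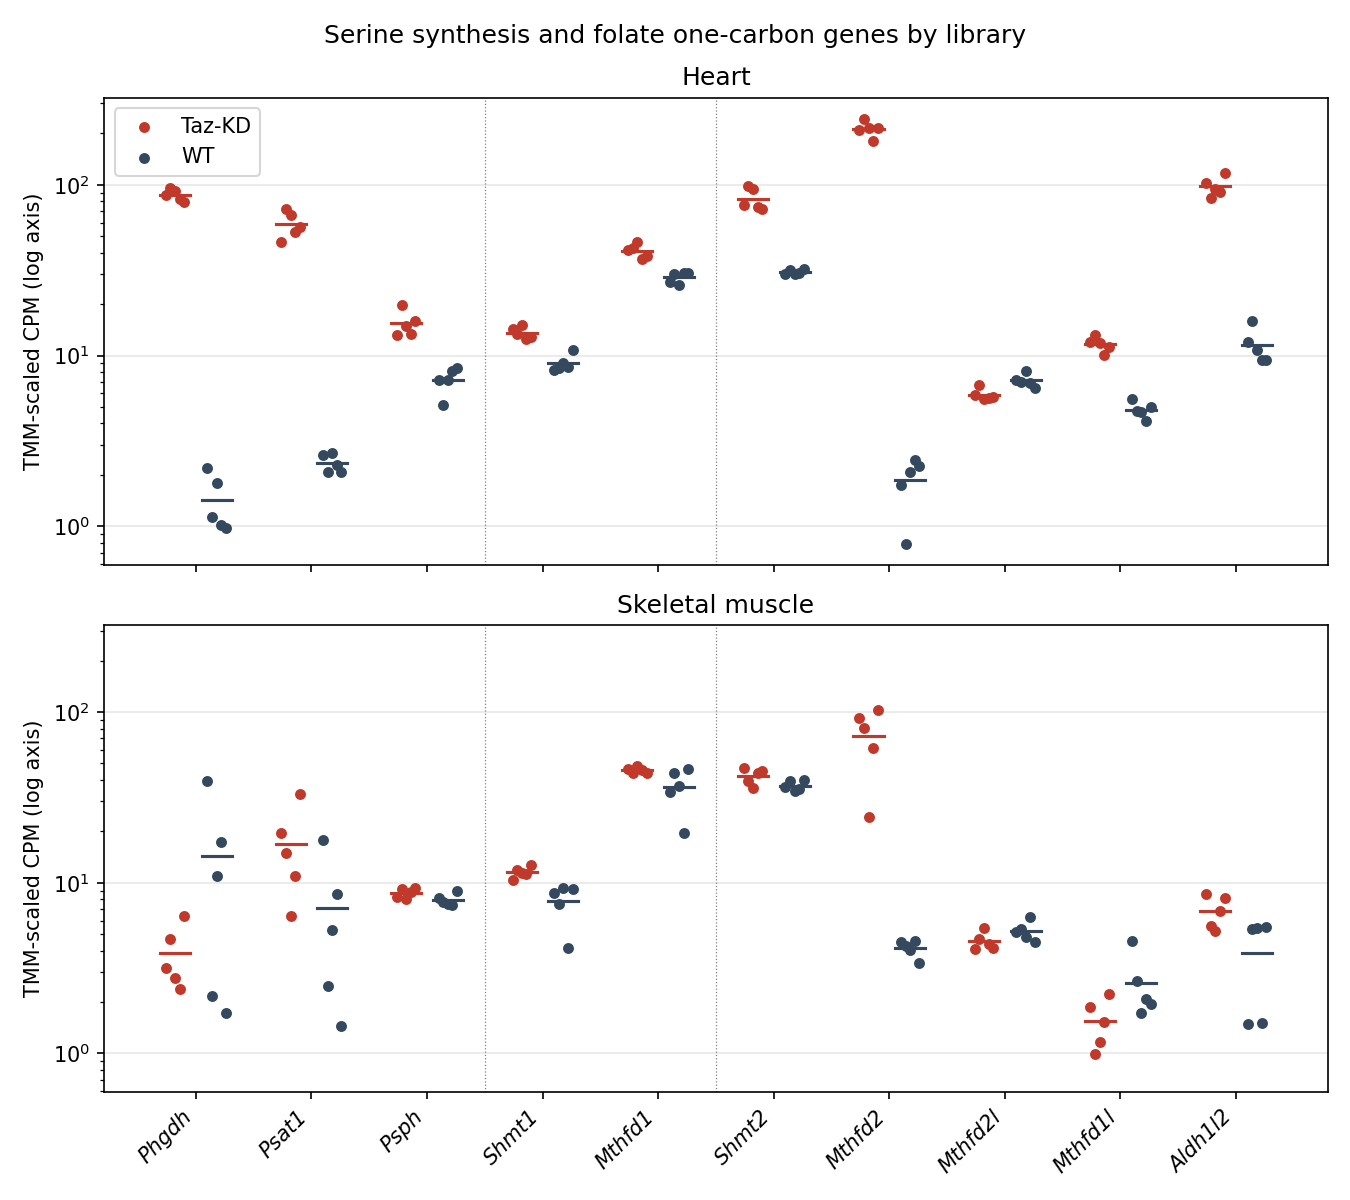
CPM after TMM scaling (log axis) of each gene in each library, hearts above and skeletal muscles below, with Taz-KD left of WT, 1 point per mouse and a line at the mean of 5. In heart the Taz-KD points of Mthfd2 sit between 181 and 242 CPM, above WT points of 0.789 to 2.45 CPM, while Phgdh in WT muscle spreads between 1.72 and 39.7 CPM.

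The serine synthesis genes rose together in heart. Phgdh (ENSMUSG00000053398, GRCm38 chromosome 3, 98313170 to 98339990) is the first and committed step. It measured 79.1, 83.1, 86.8, 92.0 and 96.0 CPM in the Taz-KD hearts, against 0.971, 1.02, 1.13, 1.79 and 2.19 CPM in the WT hearts. These rest on 2563 to 3158 counts in Taz-KD and 28 to 68 in WT libraries, and the groups are far apart (log2(FC) = 5.93 ± 0.19 SE, adjusted p = 4.69e-09, edgeR). Of the 50-base stretches of Phgdh transcripts, 47.8% also occur in 20 other annotated transcripts, Phgdh-ps1 among them, and 17.2% of the 150-base stretches are shared with 2 of them, so part of its reads cannot be assigned with certainty. The 9 of these copies in the heart table summed to 2.26 to 5.04 CPM in Taz-KD and 0.0752 to 0.620 CPM in WT hearts. In the other 9 members at most 1.96% of the 50-base stretches and none of the 150-base stretches were shared with another gene.

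Psat1 (ENSMUSG00000024640, chromosome 19, 15904678 to 15947337), the aminotransferase, measured 46.3, 52.6, 56.9, 66.6 and 72.3 CPM in the Taz-KD hearts, against 2.07, 2.08, 2.28, 2.61 and 2.69 CPM in the WT hearts. The groups were again far apart (log2(FC) = 4.65 ± 0.14, adjusted p = 1.45e-09, edgeR), and only 1 gene of the heart table had a smaller p. Psph (ENSMUSG00000029446, chromosome 5, 129765558 to 129787449), the phosphatase that ends the pathway, measured 13.2, 13.3, 14.8, 16.02 and 19.7 CPM in Taz-KD hearts, against 5.11, 7.17, 7.21, 8.09 and 8.50 CPM in WT hearts. It rose less, without overlap (log2(FC) = 1.09 ± 0.14, adjusted p = 1.76e-04, edgeR). Cct6a, a chaperonin subunit gene on the other strand, covers 10.4% of its exon bases and rose by log2(FC) 0.43 (adjusted p = 5.16e-04, edgeR). Whether the authors counted reads by strand is not given in the sources used here, so reads in the shared bases cannot be told apart.

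The cytosolic folate genes moved least among those that rose. Shmt1 (ENSMUSG00000020534, chromosome 11, 60788104 to 60811718), the cytosolic serine hydroxymethyltransferase, measured 12.4, 12.8, 13.3, 14.4 and 15.1 CPM in Taz-KD hearts, against 8.24, 8.49, 8.54, 9.03 and 10.7 CPM in WT hearts. The groups did not overlap (log2(FC) = 0.60 ± 0.09, adjusted p = 5.19e-04, edgeR). Mthfd1 (ENSMUSG00000021048, chromosome 12, 76255298 to 76319803) measured 36.7, 38.2, 41.7, 42.8 and 46.3 CPM in Taz-KD hearts, against 25.9, 26.8, 30.1, 30.3 and 30.6 CPM in WT hearts. The rise was 1.43-fold (95% interval of log2(FC) 0.35 to 0.68, adjusted p = 4.11e-04, edgeR), and in 1 fit of all 20 libraries it missed the threshold (adjusted p = 0.0589, edgeR).

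In the mitochondrial branch the 5 genes spread from the largest rise of the set to its only fall. Shmt2 (ENSMUSG00000025403, chromosome 10, 127517123 to 127522444), the entry of serine into the mitochondrial branch, measured 72.3, 74.1, 76.3, 94.96 and 98.0 CPM in Taz-KD hearts, against 29.97, 30.2, 30.4, 31.9 and 32.3 CPM in WT hearts. The WT hearts were nearly alike and all lay below the Taz-KD hearts (log2(FC) = 1.43 ± 0.09, adjusted p = 4.18e-07, edgeR). Mthfd2 (ENSMUSG00000005667, chromosome 6, 83305691 to 83325908), the dehydrogenase and cyclohydrolase, measured 181, 211, 215, 216 and 242 CPM in Taz-KD hearts, against 0.789, 1.74, 2.07, 2.26 and 2.45 CPM in WT hearts. In counts this is 5761 to 7938 reads against 21 to 70 reads, and log2(FC) was 6.83 ± 0.22 (adjusted p = 7.00e-09, edgeR). Only 10 of the 19486 genes tested had a higher log2(FC). Gm43890, a transcript model inside the gene on the same strand, shares no exon base with it and averaged 1.68 CPM in Taz-KD and 0.152 CPM in WT hearts.

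Mthfd2l (ENSMUSG00000029376, chromosome 5, 90931117 to 91021368), the paralog that adult tissues express, went the other way. It measured 5.59, 5.62, 5.68, 5.85 and 6.72 CPM in Taz-KD hearts, against 6.49, 6.93, 6.99, 7.21 and 8.10 CPM in WT hearts. The groups overlapped through the Taz-KD heart R1793 (log2(FC) = -0.28 ± 0.09, adjusted p = 0.0460, edgeR), and the call was lost when any 1 of 8 of the 10 hearts was left out (all but R1793 and R1800; adjusted p = 0.0639 to 0.134, edgeR).

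Mthfd1l (ENSMUSG00000040675, chromosome 10, 3973118 to 4167081), the formate-releasing synthetase, measured 10.0, 11.2, 11.9, 11.97 and 13.2 CPM in Taz-KD hearts, against 4.13, 4.69, 4.74, 4.996 and 5.57 CPM in WT hearts (log2(FC) = 1.27 ± 0.10, adjusted p = 3.19e-06, edgeR). Aldh1l2 (ENSMUSG00000020256, chromosome 10, 83487450 to 83534140) measured 83.5, 91.3, 94.7, 103 and 118 CPM in Taz-KD hearts, against 9.39, 9.47, 10.8, 11.9 and 16.01 CPM in WT hearts (log2(FC) = 3.09 ± 0.15, adjusted p = 1.15e-07, edgeR). Neither gene overlapped between genotypes. D10Wsu102e on the other strand covers 14.1% of the exon bases of Aldh1l2 and averaged 14.6 CPM in Taz-KD and 12.4 CPM in WT hearts, a difference that missed the threshold (adjusted p = 0.0605, edgeR). In bulk tissue fewer cells of a type and less RNA per cell cannot be told apart, and likewise more cells and more RNA. Of the markers of other cells in heart, 2 of 4 endothelial, 2 of 3 red cell and 2 of 4 dividing cell genes were called lower and 1 of 5 tested skeletal muscle genes higher in Taz-KD (edgeR). None was called of the fibroblast (6 tested), macrophage (4), white adipocyte (3) and Schwann cell (3) genes. Of all genes tested in heart, 10.3% were called lower and 14.4% higher. The dividing cell markers summed to 8.67 to 16.9 CPM in Taz-KD and 12.04 to 29.7 CPM in WT hearts, and the part of cell makeup in the member values was not tested. Among the Taz-KD hearts, R1793 was the highest for 6 of the 9 genes that rose and R1797 the lowest for 4. R1793 also had the highest adipocyte marker sum of the Taz-KD hearts, 57.995 CPM, and the WT heart R3 the highest of the WT hearts, 46.9 CPM. Without these hearts the log2(FC) was 6.11 for Phgdh, 4.61 for Psat1 and 6.75 for Mthfd2.

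In muscle, Mthfd2 alone passed the test. Of all 16145 genes tested, 0.0124% were called higher (2 genes) and 0.00619% lower (1 gene, Taz), so that a count of 1 in 10 stands against very few calls in all. DESeq2 and limma-voom also called Mthfd2 and no other member. At an unadjusted p under 0.05 (edgeR) 4 members passed (2 higher, 2 lower), as did 2408 of all 16145 genes tested. Mthfd2 measured 24.2, 61.5, 80.9, 92.1 and 103 CPM in the Taz-KD muscles, against 3.38, 4.05, 4.24, 4.49 and 4.58 CPM in the WT muscles. The Taz-KD muscle A52 stood low in its group and still above every WT muscle (log2(FC) = 4.12 ± 0.35, adjusted p = 9.49e-04, edgeR), and no gene of the muscle table had a higher log2(FC). Without the WT muscles A33 and A55 the log2(FC) was 4.21 but the call was lost (adjusted p = 0.175, edgeR), as it was without A33, A51 and A55 (log2(FC) = 4.24, adjusted p = 0.998, edgeR).

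**Figure D2:**
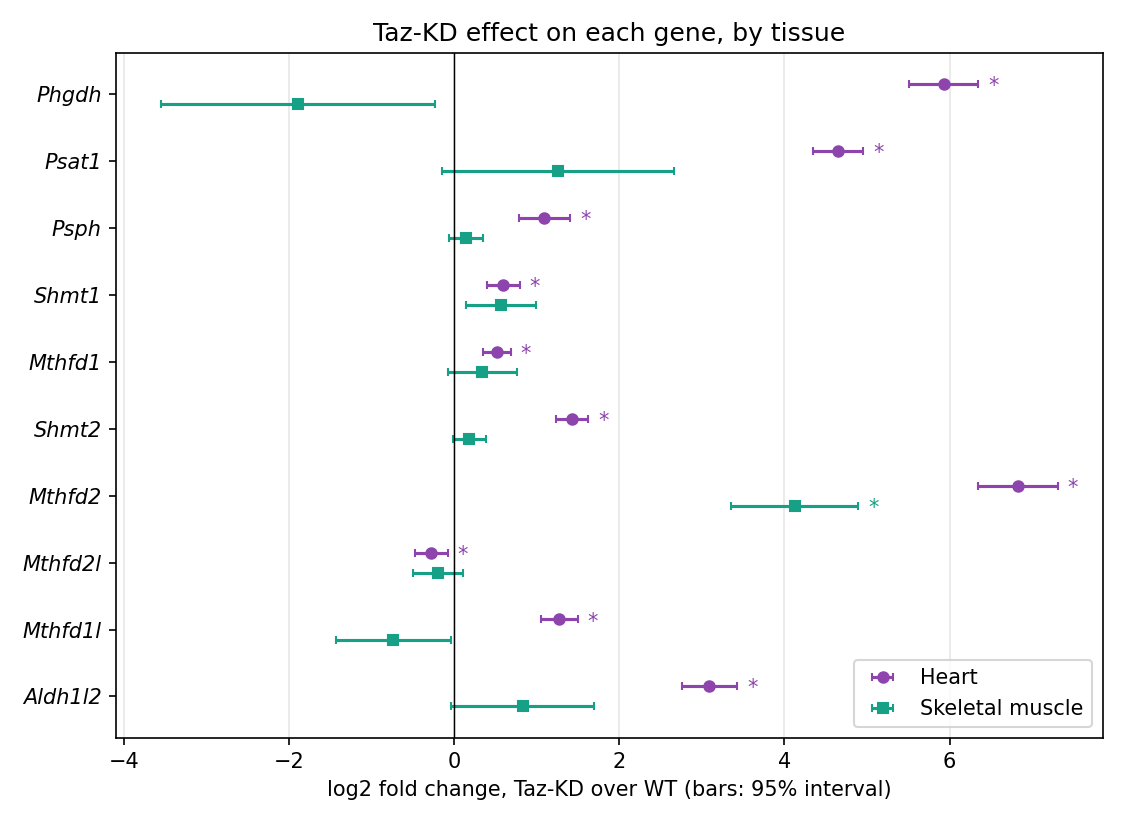
log2(FC) of Taz-KD over WT for each gene in heart (circles) and skeletal muscle (squares) with 95% intervals, where an asterisk marks an adjusted p under 0.05 (edgeR). Mthfd2 is marked in both tissues, at 6.83 in heart and 4.12 in muscle, and the other 9 genes only in heart.

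Phgdh and Psat1 varied more among WT muscles than between genotypes. Phgdh measured 2.37, 2.78, 3.16, 4.65 and 6.40 CPM in the Taz-KD muscles, against 1.72 (A57), 2.17 (A40), 10.9 (A51), 17.3 (A55) and 39.7 CPM (A33) in the WT muscles. The WT muscles fell on both sides of the Taz-KD muscles (log2(FC) = -1.89, 95% interval -3.55 to -0.23, adjusted p = 0.316, edgeR). The 18 copies of Phgdh sequence in the muscle table summed to 0.502 to 1.26 CPM in Taz-KD and 0.315 to 2.95 CPM in WT muscles, which is not small beside the lower Phgdh values, so these are uncertain. Psat1 measured 6.39, 10.9, 14.97, 19.4 and 33.1 CPM in the Taz-KD muscles, against 1.45 (A57), 2.47 (A40), 5.25 (A51), 8.58 (A55) and 17.8 CPM (A33) in the WT muscles (log2(FC) = 1.25, 95% interval -0.15 to 2.66, adjusted p = 0.375, edgeR).

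The order of the 5 WT muscles was the same for both genes, and it was also the order of their adipocyte marker sum. The Taz-KD muscles did not follow the order of their own marker sums. By rising sum (A34, A56, A58, A52, A39, from 8.86 to 184 CPM) Phgdh was 3.16, 2.37, 6.40, 2.78 and 4.65 CPM. Psat1 in the same muscles was 19.4, 10.9, 33.1, 6.39 and 14.97 CPM. Adipoq, which encodes the fat cell hormone adiponectin, measured 5.78, 6.65, 60.04, 84.8 and 273.9 CPM in A57, A40, A51, A55 and A33. Other marker sums set A33 apart as well. Its macrophage sum was 60.6 CPM, against 24.0 to 31.3 CPM in the other WT muscles. Its dividing cell sum was 12.5 CPM, against 0.757 to 1.73 CPM. Without A33, A51 and A55 the log2(FC) of Phgdh turned to 0.99 and that of Psat1 was 3.10, with 2 WT muscles left (adjusted p = 0.998 for both, edgeR). The muscles left out had the highest WT values of both genes, so both log2(FC) values had to rise. The part of RNA from fat cells or other cells in the Phgdh and Psat1 levels was not tested. Mthfd2 measured 3.38 to 4.58 CPM across WT muscles whose adipocyte sums differed from 38.4 to 1696 CPM.

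**Figure D3:**
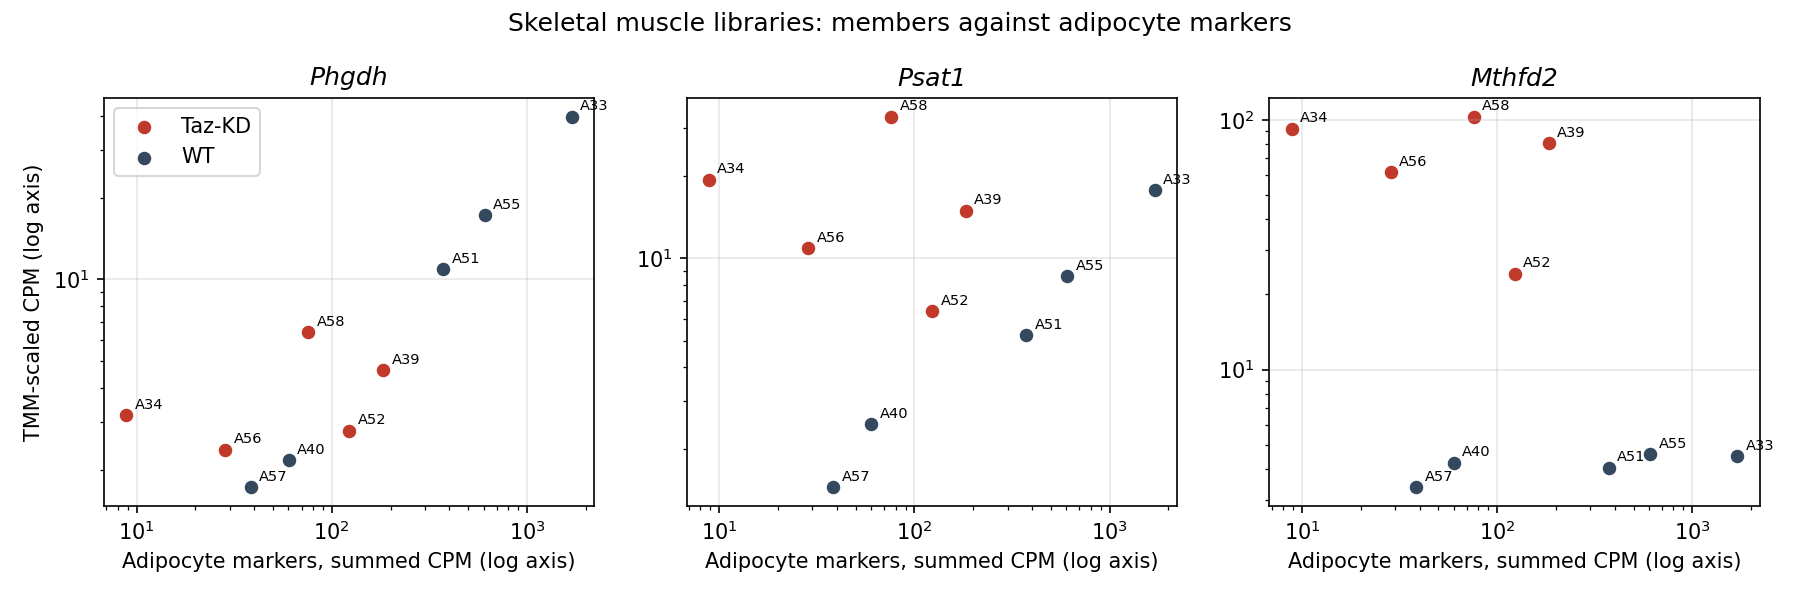
CPM of Phgdh, Psat1 and Mthfd2 against the summed CPM of 4 white adipocyte markers in each skeletal muscle library (log axes, points labelled by mouse). The WT points of Phgdh climb to 39.7 CPM at the highest marker sum, 1696 CPM, whereas the WT points of Mthfd2 stay between 3.38 and 4.58 CPM.

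The remaining members did not pass the test in muscle. Shmt1 measured 10.4 to 12.6 CPM in Taz-KD muscles, against 4.16 to 9.28 CPM in WT muscles. Its groups did not overlap, as for 1.06% of all genes tested that lay wholly higher in Taz-KD muscles, yet the adjusted p was 0.311 (edgeR, log2(FC) = 0.57, 95% interval 0.14 to 0.99). The lowest WT value, 4.16 CPM, was that of A55, which also had the lowest Mthfd1 (19.7 CPM, against 34.2 to 46.4 CPM in the other WT muscles) and the lowest summed skeletal muscle markers (65168 CPM) and the highest Schwann cell marker sum (657 CPM). Aldh1l2 measured 5.22 to 8.61 CPM in Taz-KD muscles, against 1.48 and 1.497 CPM in the WT muscles A33 and A55 and 5.37 to 5.51 CPM in the other 3 (log2(FC) = 0.83, 95% interval -0.04 to 1.70, adjusted p = 0.351, edgeR). The pair with low Aldh1l2 is the pair with the highest adipocyte sums and the lowest skeletal muscle markers, and the part of cell makeup was not tested. Mthfd1l averaged 1.56 ± 0.501 CPM in Taz-KD and 2.59 ± 1.16 CPM in WT muscles (log2(FC) = -0.74, adjusted p = 0.328, edgeR). The intervals of log2(FC) were -0.07 to 0.35 for Psph, -0.08 to 0.75 for Mthfd1, -0.02 to 0.39 for Shmt2 and -0.49 to 0.10 for Mthfd2l.

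The knockdown effect was then compared between tissues in 1 fit of all 20 libraries, as the heart log2(FC) minus the muscle log2(FC). By edgeR it was more positive in heart for 7 of the 10 genes and more negative for none, beside 3.07% and 1.55% of the 20612 genes tested. DESeq2 and limma-voom gave the same member counts, while over all genes DESeq2 called 991 and 598 and limma-voom 607 and 335. At an unadjusted p under 0.05 (edgeR) the member counts were again 7 and 0, and 4059 of all genes passed in either direction. The difference was 7.70 ± 0.87 for Phgdh (adjusted p = 4.05e-05), 3.29 ± 0.68 for Psat1 (adjusted p = 0.00855) and 0.88 ± 0.18 for Psph (adjusted p = 0.00718, all edgeR). Each gene of serine synthesis was thus called in this fit, a call that Psat1 lost without the WT muscles A33, A51 and A55.

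In the mitochondrial branch it was 1.17 ± 0.13 for Shmt2 (adjusted p = 3.50e-05), 2.65 ± 0.40 for Mthfd2 (adjusted p = 6.68e-04), 1.93 ± 0.31 for Mthfd1l (adjusted p = 9.02e-04) and 2.23 ± 0.45 for Aldh1l2 (adjusted p = 0.00737, all edgeR). Mthfd2 therefore rose in both tissues, and by more in heart. No difference was called for the cytosolic genes Shmt1 (-0.04, 95% interval -0.50 to 0.43) and Mthfd1 (0.12, 95% interval -0.35 to 0.59) or for Mthfd2l (-0.15, 95% interval -0.48 to 0.18). Without A33, A51 and A55 the difference was 4.90 for Phgdh (adjusted p = 4.20e-06, edgeR) and 1.505 for Psat1, which lost its call (adjusted p = 0.205, edgeR). The muscles left out had the highest WT values of both genes, so both differences had to shrink.

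WT hearts and WT muscles differed in the resting level of most members. Relative to WT muscle, 7 genes were called lower in WT heart and 1 higher, beside 35.3% and 45.2% of all genes tested. With library sizes alone 5 were lower and 3 higher, since that scaling moved the median log2 difference of all genes to 0.76, against 0.22 with TMM, and the calls over all genes to 11629 higher and 4363 lower, against 9314 higher and 7283 lower with TMM. The heart libraries also held 6225 to 8996 CPM of Rn7sk, a non-coding RNA without a poly(A) tail, and the muscle libraries 0.0250 to 0.633 CPM. Tissue and library preparation can therefore not be told apart in these values.

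Phgdh averaged 1.13 ± 0.412 CPM in WT hearts, against 17.1 ± 17.5 CPM in muscles of WT mice, on the scale of all 20 libraries (log2 difference, heart minus muscle, -3.90 ± 0.64, adjusted p = 1.43e-05, edgeR). It was -1.14 without A33, A51 and A55. Psat1 was lower in WT heart (-2.18), a call lost without those 3 muscles (-0.44, adjusted p = 0.399, edgeR). They had the highest Phgdh and Psat1 of the WT muscles, so leaving them out had to shrink both differences. Shmt2 averaged 24.8 ± 1.25 CPM in WT hearts, against 46.1 ± 4.33 CPM in muscles of WT mice, without overlap (-0.89 ± 0.10, adjusted p = 3.66e-08, edgeR), and Mthfd2 averaged 1.49 ± 0.532 CPM in WT hearts, against 5.15 ± 0.479 CPM in muscles of WT mice, also without overlap (-1.78 ± 0.30, adjusted p = 2.08e-05, edgeR). Aldh1l2 was the gene called higher in WT heart, at 9.22 ± 2.19 CPM in WT hearts, against 4.89 ± 2.86 CPM in muscles of WT mice (0.92 ± 0.32, adjusted p = 0.0138, edgeR). Without A33 and A55 it missed the threshold (0.38, adjusted p = 0.0582, edgeR). The difference was -0.77 for Psph, a call lost with library sizes alone, and -0.97 for Mthfd1. The call of Shmt1 (-0.42, adjusted p = 0.0201, edgeR) was lost in 13 of 31 alternatives and changed sign in 1 more (0.16 with library sizes alone), and Mthfd2l and Mthfd1l were not called.

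Levels of different genes were compared per kilobase of exon on the scale of all 20 libraries. In Taz-KD hearts the order was Mthfd2 (48.0 ± 4.79 CPM per kb), Phgdh (27.6 ± 1.85), Shmt2 (21.01 ± 2.87), Psat1 (10.9 ± 1.83), Aldh1l2 (10.3 ± 1.51), Mthfd1 (7.29 ± 0.636), Psph (2.80 ± 0.463), Shmt1 (2.76 ± 0.221), Mthfd1l (2.07 ± 0.194) and Mthfd2l (0.697 ± 0.0517). Neighbours overlapped only for Psat1 with Aldh1l2 and Psph with Shmt1. In WT hearts Shmt2 (7.98 ± 0.402 CPM per kb) and Mthfd1 (5.19 ± 0.475) led, and Phgdh (0.455), Psat1 (0.441) and Mthfd2 (0.428) came last and overlapped each other. The gene with the lowest mean in WT hearts thus had the highest mean in Taz-KD hearts. In Taz-KD muscles Mthfd2 (26.4 ± 11.01 CPM per kb) overlapped Shmt2 (17.3 ± 1.66) at the top, and in WT muscles Shmt2 (14.8 ± 1.39) overlapped Mthfd1 (10.2 ± 3.21) at the top, with Mthfd2 (1.48 ± 0.137) in the seventh place.

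The mitochondrial branch made up a larger share of folate transcripts in Taz-KD hearts. The share is the summed CPM per kb of Shmt2, Mthfd2, Mthfd2l, Mthfd1l and Aldh1l2 in percent of that sum plus Shmt1 and Mthfd1, and as a score over chosen genes it is given with no test. It was 88.3, 88.7, 88.8, 89.7 and 89.9% in Taz-KD hearts, against 59.9, 60.3, 62.2, 63.2 and 63.3% in WT hearts, with no overlap and 89.1% ± 0.676 in Taz-KD and 61.8% ± 1.61 in WT hearts (SD, n = 5 each). Both branches summed higher in Taz-KD hearts, the mitochondrial one at 82.1 ± 6.90 CPM per kb in Taz-KD and 11.4 ± 0.436 in WT hearts, the cytosolic one at 10.0 ± 0.839 in Taz-KD and 7.05 ± 0.625 in WT hearts. Mthfd2 alone made up 58.4% ± 1.35 of the mitochondrial sum in Taz-KD and 3.79% ± 1.38 in WT hearts.

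In muscle the share was 59.4% in the Taz-KD muscle A52 and 71.7 to 77.8% in the other Taz-KD muscles, against 72.1% in the WT muscle A55 and 54.9 to 60.1% in the other WT muscles, so the groups overlapped. A55 reached its share with a low cytosolic sum (6.82 CPM per kb, against 11.2 to 16.6 in the other WT muscles). A52 did so with the lowest Mthfd2 of its group.

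**Figure D4:**
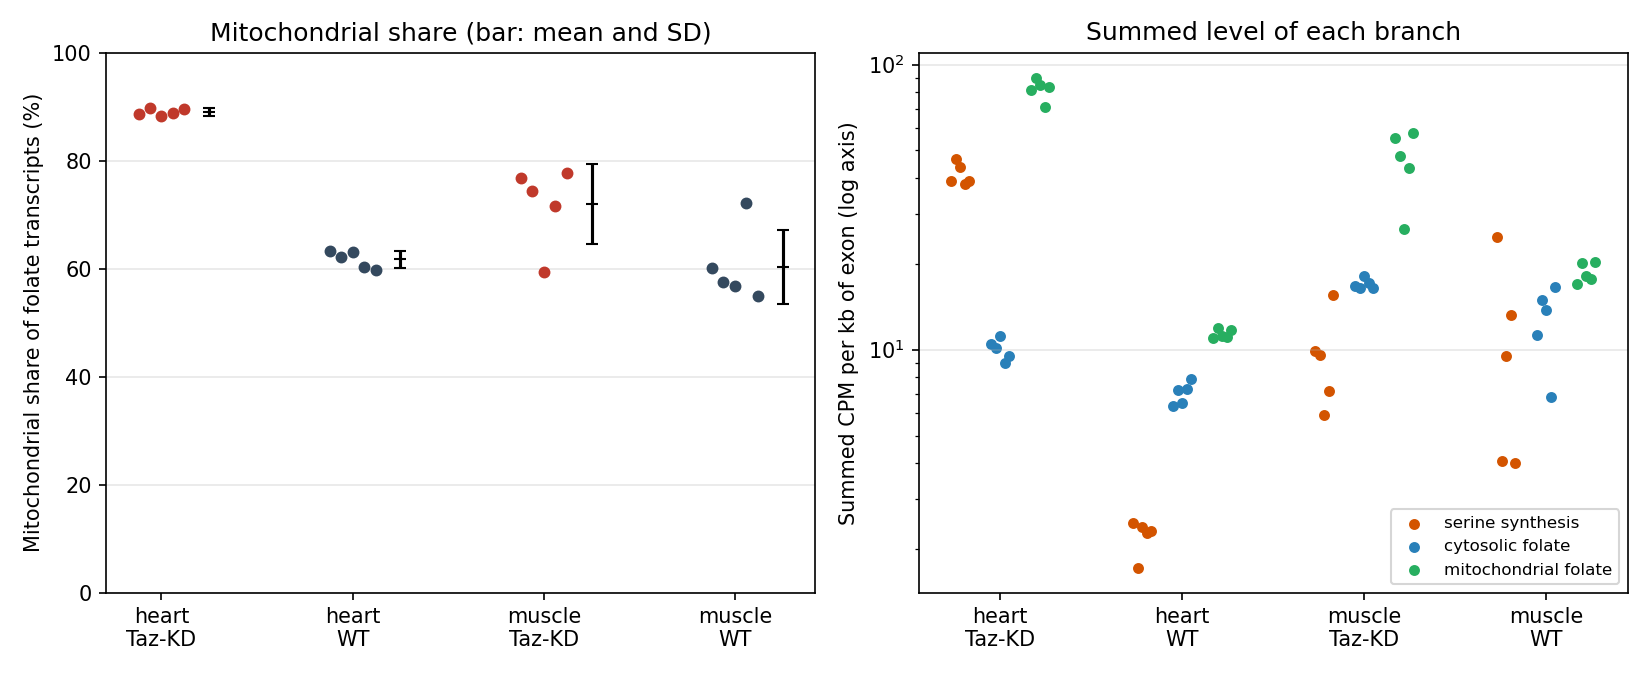
Left, the mitochondrial share of folate transcripts in percent, 1 point per library with the mean and SD beside it, and right, the summed CPM per kb of exon of each branch (log axis), for Taz-KD and WT hearts and muscles. Taz-KD hearts sit between 88.3 and 89.9%, above WT hearts at 59.9 to 63.3%, and in muscle the groups overlap.

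Ratios of a mitochondrial enzyme to its cytosolic paralog were higher in every Taz-KD heart than in any WT heart. Per kb, Shmt2 over Shmt1 was 6.64 to 9.17 in Taz-KD and 3.77 to 4.69 in WT hearts, and Mthfd1l over Mthfd1 was 0.257 to 0.308 in Taz-KD and 0.136 to 0.208 in WT hearts. Within mitochondria, Mthfd2 over Mthfd2l was 61.3 to 73.5 in Taz-KD and 0.215 to 0.674 in WT hearts, so the more abundant of the paralogs was Mthfd2 in every Taz-KD heart and Mthfd2l in every WT heart. In muscle, Mthfd2 over Mthfd2l was 8.54 to 47.4 in Taz-KD and 1.39 to 1.66 in WT muscles, while Shmt2 over Shmt1 overlapped (3.93 to 5.60 in Taz-KD and 4.64 to 10.6 in WT muscles). Mthfd1l over Mthfd1 overlapped as well, with the lower mean in Taz-KD (0.0227 to 0.0505 in Taz-KD and 0.0417 to 0.134 in WT muscles).

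Around the members, 6 lists of 52 further genes of folate and serine handling were read in the same fits, of which 49 were tested in heart and 48 in muscle. In heart 16 of the 49 were higher and 2 lower, beside 14.4% and 10.3% of all genes tested. In muscle none was called by edgeR, DESeq2 or limma-voom. At an unadjusted p under 0.05 (edgeR) 4 were higher and 8 lower, beside 2408 of all 16145 genes tested. Of 11 cytosolic and nuclear folate enzymes tested in heart, 2 were called higher, a share near that of all genes, among them Atic, which uses formyl folate in purine synthesis (log2(FC) = 0.68, adjusted p = 4.70e-05, edgeR). Of 10 genes of mitochondrial folate, glycine cleavage and carriers, none rose and Gcsh, the lipoyl carrier protein of glycine cleavage, fell (-0.21, adjusted p = 0.0252, edgeR). That call was lost without any 1 of 5 hearts (R2, R1797, R1798, R1795 or R1800; adjusted p = 0.0529 to 0.0697, edgeR). Of 3 folate uptake genes none was called by edgeR or limma-voom and 1 by DESeq2. At an unadjusted p under 0.05 (edgeR) 1 passed, as did 7110 of all 19486 genes tested.

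Carriers of serine and glycine rose in 5 of 8 cases in heart, with Slc6a9, the glycine carrier GLYT1, at log2(FC) 2.65 (adjusted p = 4.40e-07), Slc38a1 at 1.49 (adjusted p = 4.51e-05) and Slc38a2 at 0.57 (adjusted p = 2.62e-04, all edgeR). The call of Slc38a1 was lost in the fit of all 20 libraries (adjusted p = 0.131, edgeR). Genes that use serine or glycine rose in 5 of 12 cases and fell in 1. Srr, the serine racemase, was at log2(FC) 1.05 (adjusted p = 8.56e-08), Ptdss2, a phosphatidylserine synthase, at 0.35 (adjusted p = 0.00407), Sdsl, related to serine dehydratase, at 0.70 (adjusted p = 0.00947) and Gcat, of threonine breakdown to glycine (the more abundant of its 2 IDs), at -0.40 (adjusted p = 0.0206, all edgeR). The calls of Sdsl and Gcat were lost without the hearts R1793 and R3 (adjusted p = 0.0518 for Sdsl and 0.0553 for Gcat) and in the fit of all 20 libraries (0.286 for Sdsl and 0.141 for Gcat, edgeR). Of 5 transcription factor genes known to act on member genes, 4 rose in heart. Those with the smallest adjusted p were Atf5 at log2(FC) 3.67 (adjusted p = 1.14e-08), Ddit3 at 2.03 (adjusted p = 2.40e-08) and Atf4 at 2.29 (adjusted p = 2.19e-07, all edgeR). The median log2(FC) of the lists in heart was 0.08 for cytosolic and nuclear folate enzymes, -0.12 for mitochondrial folate, glycine cleavage and carriers, 0.05 for uptake, 0.47 for carriers at the surface, 0.10 for use and 2.21 for the factors, against -0.02 over all genes tested. The lists were also chosen with earlier results known.

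Genes whose pair of log2(FC) values (heart, muscle) lay nearest to those of the members with the largest rise were looked up among 12988 protein-coding genes tested in both tissues, with Euclidean distance as the measure. For Psat1 (4.65, 1.25) these were Gdf15, a stress-induced secreted factor (4.69, 1.07), Slc7a5, a subunit of the large neutral amino acid carrier (4.42, 1.22), and Acox2, a peroxisomal oxidase (4.36, 0.76). For Mthfd2 (6.83, 4.12) they were Soat2 (6.96, 3.42), Fut1 (6.35, 2.57) and Asns, the asparagine synthetase (6.48, 1.97). For Phgdh (5.93, -1.89) they were farther off, Tenm4 (6.19, -0.42), Ptprt (4.27, -1.39) and Cdsn (5.02, -3.86). All 9 were called in heart and none in the edgeR fit of the muscle libraries alone. They were picked for lying near large heart log2(FC) values, so their heart calls follow from the choice. That muscle fit called 0.0124% of all genes higher and 0.00619% lower. In muscle, Slc7a5, Soat2 and Cdsn were called by DESeq2 and in the edgeR fit of all 20 libraries (adjusted p = 0.0316, 0.0149 and 0.0489).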

How the data were processed

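Per the labels, RNA of hearts and femur muscles was depleted of ribosomal RNA and sequenced as 150 bp read pairs, but Rn7sk levels differ so widely between the tissues that a shared library preparation is not certain. The authors aligned reads to GRCm38 (mm10) with STAR and deposited raw counts per gene from featureCounts 1.6.4. Strand setting, handling of multi-mapped reads and annotation release: not given in the sources used here. From these counts, differences were tested with edgeR 4.0.16 (TMM, filterByExpr, robust quasi-likelihood test, Benjamini-Hochberg over all genes tested, threshold 0.05), within each tissue and, for the tissue comparisons, over all 20 libraries. Standard errors were derived from the F statistic. DESeq2 1.42.0, limma 3.58.1 (voom), other scalings and filters, and leaving out libraries were the alternatives, and leaving out the muscles A33 and A55, the muscles A33, A51 and A55 or the hearts R1793 and R3 was added after seeing the data. Genes were named by Ensembl ID from GENCODE M21. All 10 members are named, with Taz, at most 3 genes per direction, tissue and list, the 3 nearest genes and overlapping genes. A gene that this rule selects is not reported here. Members and lists were chosen with earlier results of these data known. Each library has its own animal code, and p-values weigh group differences against the spread between libraries. Low counts set the precision of genes near 1 CPM. The tests were tested on simulated data first.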

Additional observations from a re-analysis of the deposited data

Results flagged for a closer look

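The Taz-KD effect differed between heart and muscle, by a test of the difference itself (edgeR, 20 libraries), for Phgdh (heart minus muscle 7.70 on the log2 scale), Psat1 (3.29), Psph (0.88), Shmt2 (1.17), Mthfd2 (2.65), Mthfd1l (1.93) and Aldh1l2 (2.23). Without the WT muscles A33, A51 and A55 the difference was 4.90 for Phgdh and 1.505 for Psat1, which lost its call (adjusted p = 0.205, edgeR). The muscles left out had the highest WT values of both genes, so both differences had to shrink. A library stood apart from its group: R1793 had the highest Mthfd2l of the Taz-KD hearts, 6.72 CPM, where the other 4 had 5.59 to 5.85 CPM. Of 44 groups of 5 libraries examined this was the only 1, and chance gives about 1 in 20.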

How the results depend on the processing

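Of 1020 values of single members recomputed under the alternatives, 971 kept direction and side of the threshold, 33 lost the call, 3 gained it and 13 changed sign. The count of members called stayed at 9 to 10 in heart, 1 in muscle, 7 for the tissue difference of the effect and 7 to 9 between WT tissues when each library was left out in turn. In muscle it was 0 without A33 and A55, and 0 without A33, A51 and A55 as well, with 3 and 2 WT muscles left. Leaving out each library moved the mean mitochondrial share between 88.9 and 89.3% in Taz-KD hearts, 61.4 and 62.2% in WT hearts, 70.6 and 75.2% in Taz-KD muscles and 57.3 and 61.7% in WT muscles. With longest transcripts it was 90.1% in Taz-KD hearts, and without division by length 88.2% in Taz-KD and 59.9% in WT hearts. Of the sign changes of members, that of Shmt1 between WT tissues started from a called value, and that of Mthfd2l between WT tissues ended in one with library sizes only (adjusted p = 0.0274, edgeR). Without A33, A51 and A55, the WT muscles with the highest Phgdh, Phgdh in muscle was 0.99. The interaction of Shmt1 was 0.13 with library sizes only, 0.010 with 10 counts in every library, -0.12 to 0.17 with each library left out, 0.17 without A33 and A55 and 0.076 without A33, A51 and A55, and that of Mthfd2l 0.061 with library sizes only. Between WT tissues, library sizes only gave 0.16 for Shmt1 and 0.38 for Mthfd2l, and 10 counts in every library 0.0021 for Mthfd2l. Among nearest genes in muscle, Tenm4 was 0.36 with limma-voom, -0.71 to 0.92 with each library left out (highest without A33), 1.51 without A33 and A55 and 2.47 without A33, A51 and A55, where Cdsn was 0.58 and Ptprt 0.23. The cause of these changes was not tested. Over all genes, DESeq2 called 38 higher and 107 lower in muscle, against 2 and 1 with edgeR, and 991 and 598 for the tissue difference of the effect, against 632 and 320, while 1 fit of all 20 libraries called 1372 and 715 in heart, against 2804 and 1999, and 32 and 135 in muscle, against 2 and 1 (770 and 2430 in that fit without A57). Library sizes only moved the median log2(FC) of all genes to -0.16 in muscle. No paired analysis was possible because the groups share no replicate numbers.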
